A study of Mus musculus with 22 samples.

Results

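A run of 10 genes that lie next to each other around Vegfa on mouse chromosome 17 were examined in liver tumours: Aars2, Slc35b2, Slc29a1, Tmem63b, Mrpl14, Vegfa, Mrps18a, Mad2l1bp, Xpo5 and Polr1c, given here in chromosomal order. They are 10 of the 18188 features tested on the arrays and 10 of the 551 measured genes of that chromosome. The members were chosen by measured values in these same tumours, because their levels were high together in some Mdr2-KO tumours. Their levels are therefore a description, and the p-values printed for them come from a model over all features and support nothing about the members. All 10 were represented, by 15 spots, of which 14 gave values in enough tumours. The spot left out, for Slc29a1, had a value in 1 tumour.

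The groups were 6 IkB-SR tumours (replicates 3, 4, 6, 8, 9 and 10), 4 Mdr2-KO tumours (replicates 1, 2, 5 and 7) and 1 wild-type liver. All 10 tumours were hepatocellular carcinomas of mice with the Mdr2-/- allele, which lack the phospholipid transporter of the bile canaliculus. The IkB-SR mice carried 2 transgenes besides that allele: an IkB super-repressor, which blocks NF-kB, under tetracycline control, and the transactivator it needs, made in hepatocytes from a C/EBP promoter (TALAP1). The design text gives 1 mouse per tumour. The label of the sample labelled IkB-SR replicate 8 is in doubt by its level of Nfkbia, given at the end, and the sample is kept in its labelled group. Background was mixed in every group, sex unknown, and the sources used here give neither ages nor tetracycline treatment. The wild-type liver had the same background, the number of animals in it is not given, and its label, like those of the tumours, names a carcinoma stage. Each RNA was compared with a pooled reference RNA of mouse cell lines (Universal Mouse Reference RNA) on a pair of two-colour arrays of opposite dye orientation. A value below is a log2 ratio over that reference, most likely sample over reference and averaged over both arrays. A difference is a log2 difference, and "relative" means minus the gene's median over the 10 tumours.

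Vegfa encodes the main secreted growth factor for blood vessels. Hepatocytes and tumour cells release it, and it acts on the receptors Kdr and Flt1 of endothelial cells. Gains of the DNA segment that holds Vegfa are known from liver cancers of mouse and human. DNA was not measured here. Of the other members, 3 serve protein synthesis in mitochondria: Aars2 charges tRNA with alanine there, and Mrpl14 and Mrps18a are proteins of the mitochondrial ribosome. The rest have varied tasks. Slc35b2 carries the sulphate donor PAPS into the Golgi, Slc29a1 is the equilibrative nucleoside transporter ENT1, and Tmem63b is a membrane protein of a family of mechanically gated channels. Mad2l1bp silences the spindle checkpoint, Xpo5 exports precursor miRNAs out of the nucleus, and Polr1c is a subunit shared by RNA polymerases I and III.

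The RefSeq table (assembly GRCm38.p6) placed 35 genes from Aars2 to Polr1c, 20 of them protein-coding. The platform named 18 of these and 14 were measured: the 10 members and 4 others, Nfkbie, Hsp90ab1, Gtpbp2 and Polh. Of the members, 5 precede Vegfa in that order. The promoter table held a window from 250 bases before to 50 after the start for all 10 members. The windows of Slc35b2, Mrpl14 and Vegfa are shown, 5′ to 3′ on the gene's strand, because each holds a match to the NF-kB consensus, marked in capitals, in a study that blocks NF-kB. They lie at chr17:45563686-45563985 (+), chr17:45686099-45686398 (+) and chr17:46032328-46032627 (-) in GRCm38.p6, and for Vegfa the first of 2 listed windows is given.
Slc35b2: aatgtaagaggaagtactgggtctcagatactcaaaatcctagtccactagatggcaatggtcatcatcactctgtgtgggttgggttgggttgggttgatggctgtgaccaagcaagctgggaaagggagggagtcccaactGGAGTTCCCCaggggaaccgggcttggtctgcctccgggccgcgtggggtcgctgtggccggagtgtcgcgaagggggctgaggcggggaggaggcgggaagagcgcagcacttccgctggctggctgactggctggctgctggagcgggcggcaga
Mrpl14: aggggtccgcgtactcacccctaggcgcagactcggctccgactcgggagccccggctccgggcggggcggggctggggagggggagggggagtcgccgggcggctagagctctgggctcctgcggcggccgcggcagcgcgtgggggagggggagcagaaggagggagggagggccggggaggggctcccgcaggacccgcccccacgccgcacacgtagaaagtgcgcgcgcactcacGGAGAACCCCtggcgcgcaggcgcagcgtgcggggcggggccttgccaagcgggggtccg
Vegfa: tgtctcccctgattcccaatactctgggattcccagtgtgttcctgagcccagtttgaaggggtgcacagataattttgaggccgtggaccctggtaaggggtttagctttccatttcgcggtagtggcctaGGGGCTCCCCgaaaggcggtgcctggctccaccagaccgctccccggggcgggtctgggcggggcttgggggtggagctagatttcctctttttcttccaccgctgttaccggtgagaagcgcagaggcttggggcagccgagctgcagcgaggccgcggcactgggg

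The match lay on the gene's strand in Vegfa and on the other strand in Slc35b2 and Mrpl14. Searched on both strands, the NF-kB consensus was found in 4 of 10 member windows and in 4.51% of all 32851 windows. The fourth, Tmem63b, shares 230 of its 300 bases with the Mrpl14 window, since both genes start there in opposite directions. Counted over both strands, the Tmem63b window held 3 matches and that of Mrpl14 held 1. Members had GC-rich windows, at least 60% GC in 7 of 10, and of all windows that rich 6.48% held the consensus. The GC box GGGCGG was in 8 of 10 member windows, against 35.7% of all windows and 80.6% of the GC-rich ones. The hypoxia core ACGTG was in 4 member windows (Tmem63b, Mrpl14, Xpo5 and Polr1c) and in 19.6% of all, and not in that of Vegfa. The single match of Tmem63b and that of Mrpl14 are the same site, in their shared bases. A match describes letters only, and binding was not measured.

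Vegfa was high in 3 Mdr2-KO tumours and low in the other tumours. Its values were -0.80, -0.50, -1.08, -1.10, -0.98 and -0.97 in IkB-SR tumours 3, 4, 6, 8, 9 and 10, against 1.42, -0.15, 1.34 and 1.61 in Mdr2-KO tumours 1, 2, 5 and 7. The wild-type liver had -0.35. Thus Mdr2-KO tumours 1, 5 and 7 stood together above tumour 2, which in turn lay above every IkB-SR tumour, so the groups did not overlap. The 3 Vegfa spots ran in parallel over the tumours (r from 0.995 to 0.998), with differences between groups of -1.92, -2.03 and -1.92.

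The 4 members that follow Vegfa were high in the same 3 Mdr2-KO tumours. Xpo5, the exporter of precursor miRNAs, ranged from -2.10 to -1.55 (median -1.74) in the 6 IkB-SR tumours, against 0.07, -1.45, 0.39 and 0.12 in Mdr2-KO tumours 1, 2, 5 and 7 and -1.82 in wild-type liver. Mdr2-KO tumour 2 again lay just above the highest IkB-SR tumour, so for Xpo5 too the groups did not overlap. Polr1c ranged from -2.01 to -0.91 (median -1.49) in IkB-SR tumours, against 0.84, -0.98, 0.45 and 0.17 in Mdr2-KO tumours 1, 2, 5 and 7, and -1.52 in wild-type liver. Here tumour 2 fell inside the IkB-SR range.

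The other followers showed the same 3 high tumours. Mrps18a, of the small subunit of the mitochondrial ribosome, ranged from -0.42 to 0.27 (median -0.04) in IkB-SR tumours, against 1.72, -0.22, 1.78 and 1.21 in Mdr2-KO tumours 1, 2, 5 and 7, and -0.48 in wild-type liver. Mad2l1bp, the checkpoint silencer, ranged from -0.87 to -0.06 (median -0.56) in IkB-SR tumours, against 0.84, -0.52, 1.82 and 0.71 in Mdr2-KO tumours 1, 2, 5 and 7, and -0.71 in wild-type liver. In both genes tumour 2 lay among the IkB-SR tumours while tumours 1, 5 and 7 lay above all of them.

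The 5 members that precede Vegfa were high in Mdr2-KO tumours 5 and 7 and not in tumour 1. Slc35b2, the PAPS transporter, ranged from -0.14 to 0.31 (median 0.01) in IkB-SR tumours, against -0.03, -0.03, 2.41 and 1.77 in Mdr2-KO tumours 1, 2, 5 and 7, and -0.41 in wild-type liver. Tmem63b ranged from -0.19 to 1.00 (median 0.31) in IkB-SR tumours, against -0.30, 0.09, 3.39 and 2.43 in Mdr2-KO tumours 1, 2, 5 and 7, and 0.24 in wild-type liver. For both genes tumours 1 and 2 lay in or below the IkB-SR range, and tumours 5 and 7 stood far above it.

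Slc29a1, the nucleoside transporter, ranged from -0.06 to 1.42 (median 0.57) in IkB-SR tumours, against 0.21, 0.25, 2.94 and 2.44 in Mdr2-KO tumours 1, 2, 5 and 7. Its wild-type liver value, 1.85, lay above every IkB-SR tumour and below Mdr2-KO tumours 5 and 7. Mrpl14, of the large mitochondrial subunit, ranged from -0.01 to 0.51 (median 0.23) in IkB-SR tumours, against 0.33, 0.36, 1.87 and 1.31 in Mdr2-KO tumours 1, 2, 5 and 7, and 0.38 in wild-type liver. Aars2, the outermost member, differed least: 0.09 to 0.30 (median 0.16) in IkB-SR tumours, against 0.16, 0.19, 0.87 and 0.56 in Mdr2-KO tumours 1, 2, 5 and 7, and 0.21 in wild-type liver.

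**Figure D1:**
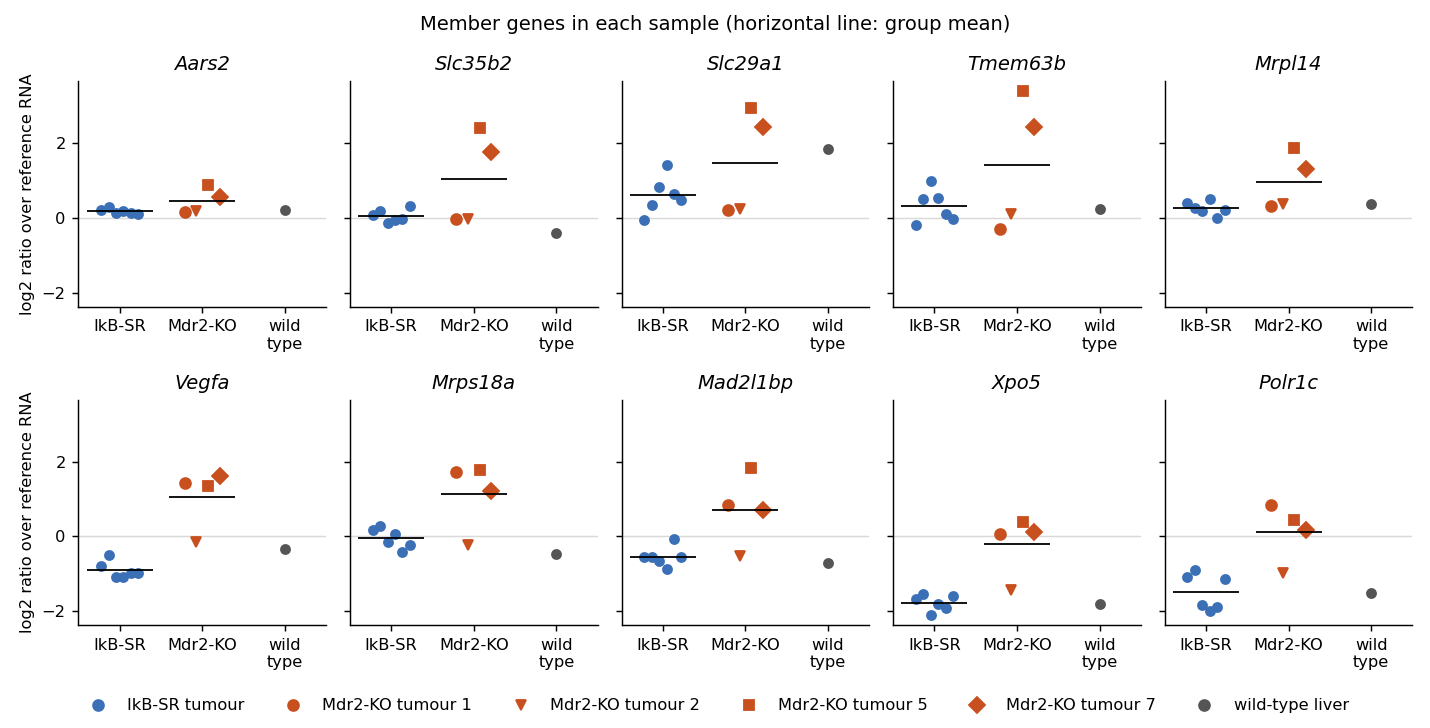
Log2 ratio over the reference RNA (vertical axis) of the 10 members in chromosomal order, with 1 point per sample: 6 IkB-SR tumours left, 4 Mdr2-KO tumours by tumour number, and 1 wild-type liver right. Horizontal lines are group means. From Vegfa on, Mdr2-KO tumours 1, 5 and 7 lie above all IkB-SR tumours. Before Vegfa, tumours 5 and 7 do and tumour 1 does not.

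Seen by tumour, the median relative value of the members was 0.68 in Mdr2-KO tumour 1, 1.98 in tumour 5 and 1.47 in tumour 7. It was 0.01 in Mdr2-KO tumour 2 and between -0.26 and 0.12 in the 6 IkB-SR tumours. Split at Vegfa, tumour 1 had a median of -0.05 (-0.61 to -0.02) over the 5 earlier members and 1.65 (1.38 to 2.07) from Vegfa on. Tumour 5 had 2.38 (0.68 to 3.08) and 1.97 (1.48 to 2.36) for these sets, and tumour 7 had 1.75 (0.37 to 2.12) and 1.25 (1.09 to 2.26). The step at Vegfa was therefore seen in tumour 1 and not in tumours 5 and 7.

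Counted by a relative value above 1, the members were high 5, 9 and 8 times of 10 in Mdr2-KO tumours 1, 5 and 7, and 0 times in each of the other 7 tumours. In the same 3 tumours 2.47%, 1.19% and 1.61% of all features with a value were that high, and 3.07%, 1.53% and 9.78% of the other measured genes of chromosome 17. The rule used these values, so nothing is read from the members' counts. Values of the Cy3 arrays alone gave member medians of 0.69, 2.38 and 1.78 in tumours 1, 5 and 7, and of the Cy5 arrays 0.57, 1.55 and 1.08. Relative to the wild-type liver in place of the tumour median, the member medians were 0.97, 2.09 and 1.69 in these tumours and 0.19 in tumour 2.

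**Figure D2:**
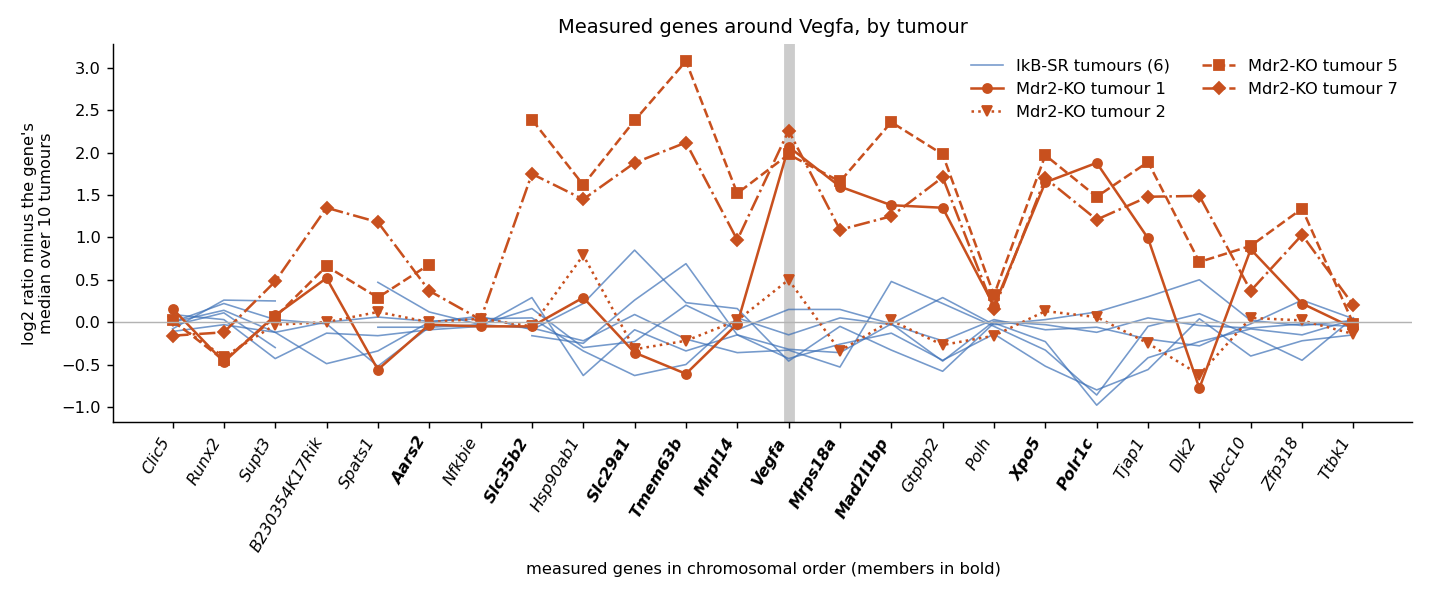
Relative log2 value (vertical axis) of the 24 measured genes from Clic5 to Ttbk1, in chromosomal order, members in bold, for the 6 IkB-SR tumours (blue) and each Mdr2-KO tumour (orange, by symbol). The grey bar marks Vegfa. Mdr2-KO tumour 1 steps up at Vegfa, from -0.02 at Mrpl14 to 2.07. Tumours 5 and 7 are already high at Slc35b2. Gaps are missing values.

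The 4 measured genes between the members are not members themselves, and whether their values played a part in the choice is not known. Gtpbp2, a GTP-binding protein related to translation factors, sits between Mad2l1bp and Xpo5 and had relative values of 1.35, 1.98 and 1.71 in Mdr2-KO tumours 1, 5 and 7, -0.27 in tumour 2 and -0.58 to 0.29 in IkB-SR tumours. Hsp90ab1, the constitutive cytosolic Hsp90 chaperone, lies between Slc35b2 and Slc29a1 and had 1.62 and 1.45 in tumours 5 and 7, 0.29 in tumour 1, 0.79 in tumour 2 and -0.63 to 0.22 in IkB-SR tumours. Gtpbp2 took the pattern of the members from Vegfa on. Hsp90ab1 was highest in tumours 5 and 7, as the earlier members were. Its values in tumours 1 and 2 lay above those of the earlier members (-0.61 to -0.02 and -0.32 to 0.02). The other 2 did not stand out. Polh, the translesion DNA polymerase eta, had 0.19, 0.32 and 0.15 in tumours 1, 5 and 7, and Nfkbie, the NF-kB inhibitor IkB-epsilon, had -0.05 in tumour 1, 0.03 in tumour 7 and no value in tumour 5.

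Outside the members, the 5 nearest measured genes on each side were read the same way. Before Aars2, Spats1 and B230354K17Rik were high in tumour 7 alone (1.18 and 1.35), with 0.29 and 0.66 in tumour 5, while Clic5, Runx2 and Supt3 stayed between -0.47 and 0.48 in the 4 Mdr2-KO tumours. After Polr1c, Tjap1, a tight junction protein, had 0.99, 1.89 and 1.48 in tumours 1, 5 and 7. Abcc10, a multidrug transporter, had 0.86, 0.90 and 0.37. Zfp318, a nuclear zinc finger protein, had 0.22, 1.34 and 1.03, and Dlk2, an epidermal growth factor-like protein, -0.78, 0.71 and 1.49. Ttbk1, a tau-tubulin kinase of brain, lay between -0.07 and 0.20 in these tumours. Tumour 1 thus fell back earlier than tumours 5 and 7.

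The stretch of raised genes differed in length between the tumours. With a running median over 7 measured genes and a limit of 0.5, it ran from Vegfa to Abcc10 in Mdr2-KO tumour 1 (10 genes), from Aars2 to Cul9 in tumour 5 (20 genes) and from Aars2 to Tfeb in tumour 7 (48 genes). No stretch around Vegfa passed the limit in Mdr2-KO tumour 2 or in any of the 6 IkB-SR tumours. Within these stretches 6 of 10, 14 of 19 and 31 of 48 genes with a value exceeded 1. The remainder included Polh in all 3, and in tumours 5 and 7 Ttbk1. In tumour 1 a running median over 11 genes was 0.29 at Vegfa, where the rise begins, and thus under the limit there, while it reached 1.35 at Mrps18a. Over 5 genes the stretch of tumour 1 held 9.

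The genes that only the stretch of tumour 7 holds are given with their relative values there, chosen after their values were seen. Taf8, a subunit of transcription factor TFIID, had 2.02, Cul7, a ubiquitin ligase scaffold, 1.89, and Mrpl2, a mitochondrial ribosomal protein, 1.85. Ccnd3, the cell cycle regulator cyclin D3, had 1.29 in tumour 7, against 0.21 in tumour 5 and -0.07 in tumour 1. Other stretches of chromosome 17 passed the limit in tumour 7 too: Gtf2h4 to H2-T10 (15 genes, running median up to 1.19) and Ehd3 to Rasgrp3 (12 genes, up to 1.21). In tumours 1 and 5 the highest running median elsewhere on the chromosome was 0.64 and 0.57, and among IkB-SR tumours 0.60, in tumour 4.

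**Figure D3:**
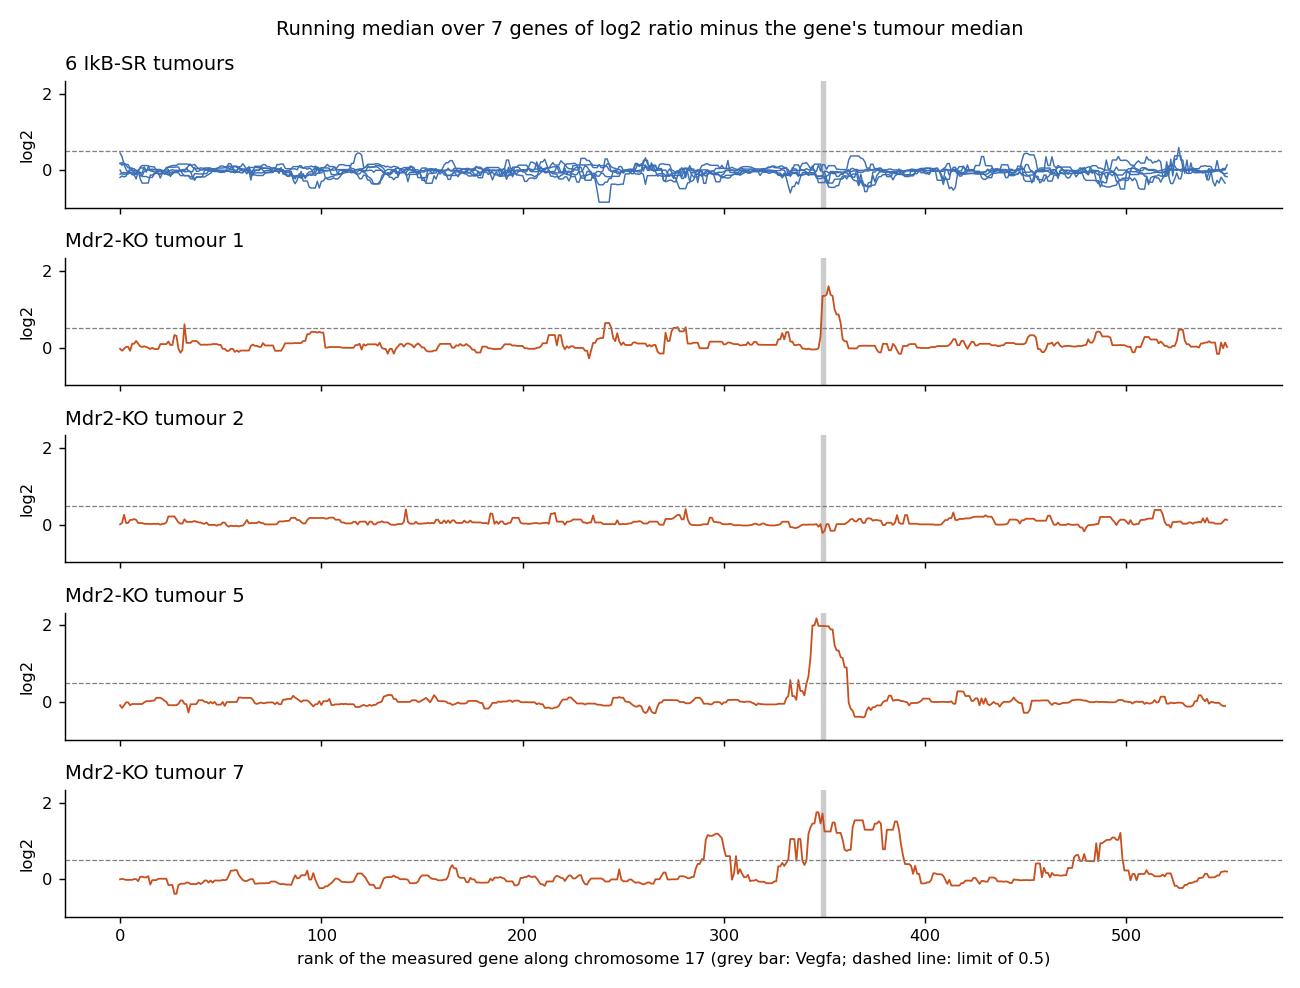
Running median over 7 measured genes of the relative log2 value (vertical axis), against the rank of 551 measured genes along chromosome 17, with the IkB-SR tumours on top and each Mdr2-KO tumour below. The dashed line is the limit of 0.5 and the grey bar is Vegfa. A peak at Vegfa is narrow in tumour 1, wider in tumour 5, and widest in tumour 7, which has 2 further broad rises. Tumour 2 and the IkB-SR tumours have none there.

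The members fell into 2 sets by likeness over the 10 tumours, given as a description since the points share arrays and a few high tumours set each value. Pairs among Vegfa and its followers had Pearson's r of 0.833 to 0.979 (10 pairs), pairs among the earlier members 0.856 to 0.963 (10 pairs), and pairs across Vegfa 0.355 to 0.805 (25 pairs). Of 10235 named genes with values in all tumours, the one most like Vegfa was Xpo5 (r 0.979). Polr1c was rank 11 (0.947), Mrps18a rank 39 (0.92) and Mad2l1bp rank 106 (0.876). The earlier members had r of 0.546 to 0.722, at ranks 552 to 1491.

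The 8 genes outside the members most like Vegfa lay on other chromosomes: Slc26a11 (r 0.966), Nrros (0.958), Gatm (0.956), Gp1bb (0.954), Efnb2 (0.951), Abi3 (0.951), Armcx2 (0.951) and Srgn (0.95). Efnb2 encodes ephrin-B2, a ligand of arterial endothelium, Srgn the proteoglycan serglycin of blood cells and endothelium, and Nrros a protein of macrophages. Their relative values in Mdr2-KO tumours 1, 5 and 7 were 0.48 to 1.82. Of the 50 genes most like Vegfa, 5 were on chromosome 17, which holds 4.72% of the named genes with a position, and 3 of these were members; the other 2 were Gtpbp2 and Tjap1.

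**Figure D4:**
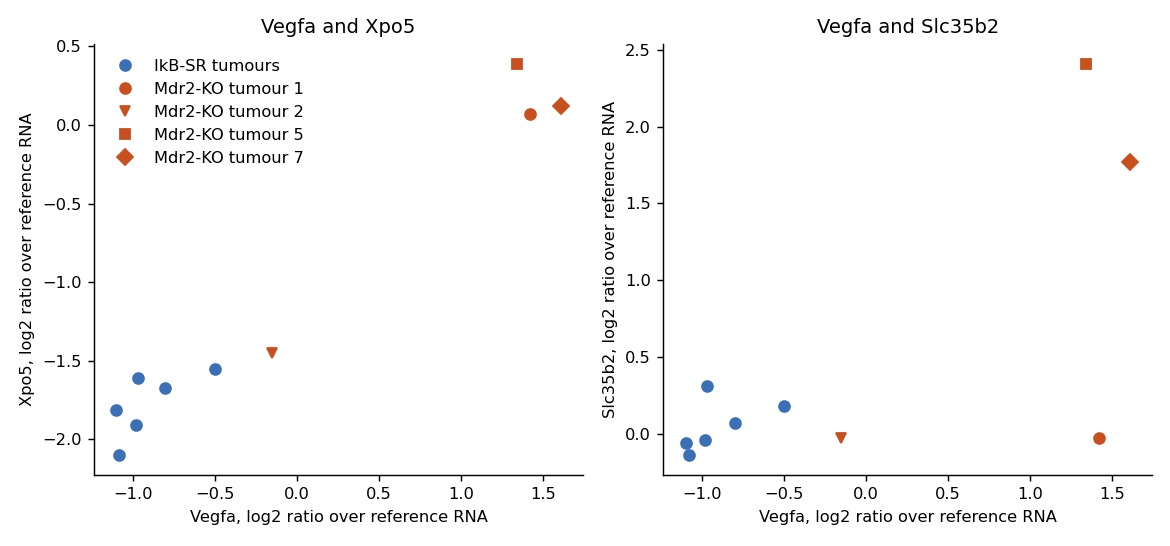
Log2 ratios over the reference RNA of Vegfa (horizontal axes) against Xpo5 (left) and Slc35b2 (right) in 6 IkB-SR tumours (blue) and 4 Mdr2-KO tumours (orange, by symbol). Mdr2-KO tumours 1, 5 and 7 are apart from the rest for Vegfa and Xpo5. For Slc35b2, tumour 1 lies with the low tumours at -0.03 while its Vegfa value is 1.42.

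Between IkB-SR and Mdr2-KO tumours all 10 members had lower means in IkB-SR tumours, as had 10314 of all 18188 features, and no member passed the test. In the limma model 0 of 18188 features (0%) had an adjusted p under 0.05, the lowest being 0.0529, and 2249 (12.4%) had an unadjusted p under 0.05, 1701 of them lower in IkB-SR tumours. Vegfa averaged -0.90 ± 0.23 (SD, n = 6) in IkB-SR tumours and 1.05 ± 0.81 (SD, n = 4) in Mdr2-KO tumours, a difference of -1.96 (SE 0.31), or 3.88-fold. Its limma p was 9.4e-05 (rank 22 of all features), and its limma adjusted p = 0.0761. These values were used in choosing the members, so the p describes them and tests nothing. The difference is larger than the spread of the IkB-SR tumours, while the Mdr2-KO tumours themselves spread widely, with tumour 2 apart from the other 3.

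For Xpo5 the means were -1.78 ± 0.21 (SD, n = 6) in IkB-SR and -0.22 ± 0.83 (SD, n = 4) in Mdr2-KO tumours (difference -1.56, limma adjusted p = 0.103). Polr1c differed by -1.61 (limma adjusted p = 0.116), Mad2l1bp by -1.26 (0.204) and Mrps18a by -1.17 (0.224). The earlier members had differences of -0.27 in Aars2 to -1.08 in Tmem63b, with limma adjusted p from 0.353 to 0.639. These rested on few tumours: without Mdr2-KO tumour 5 they were -0.13 in Aars2, -0.52 in Slc35b2, -0.36 in Slc29a1, -0.42 in Tmem63b and -0.41 in Mrpl14. Without Mdr2-KO tumour 7 Slc29a1 had -0.52, and without Mdr2-KO tumour 1 Tmem63b had -1.65. The median over the members was -1.12, against -0.02 over all features tested. Unadjusted, 6 of the 10 had p under 0.05. Every IkB-SR tumour lay below every Mdr2-KO tumour for 2 of 10 members, Vegfa and Xpo5, and for 2.21% of 15001 features with values in all tumours. Leaving out Mdr2-KO tumour 2 moved Vegfa to -2.36 (limma adjusted p = 0.000839) and put 4 members past the threshold, Vegfa, Mrps18a, Xpo5 and Polr1c. Over all features 32 were called in that setting. The tumour was singled out by these same values, so that adds no support.

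The samples formed 2 dye batches by how far their swapped arrays differed, and the members' differences were not alike in them. In batch 1 (Mdr2-KO tumours 1 and 2 with IkB-SR tumours 3, 4, 9 and 10) the earlier members differed by -0.14 to 0.20. In batch 2 (Mdr2-KO tumours 5 and 7 with IkB-SR tumour 6, the sample labelled IkB-SR replicate 8 and the wild-type liver) they differed by -2.19 to -0.56. From Vegfa on, the direction was the same in both: Vegfa differed by -1.44 in batch 1 and -2.56 in batch 2, and Polr1c by -1.20 and -2.23 in the same batches. The 2 tumours with raised earlier members are the 2 Mdr2-KO tumours of batch 2, and batch and tumour cannot be told apart for them. In the same batch, IkB-SR tumour 6 had a median relative value of -0.06 (-0.16 to 0.69) for these members. The sample labelled IkB-SR replicate 8 had 0.16 (-0.09 to 0.85). The highest was Tmem63b in tumour 6 and Slc29a1 in replicate 8. The wild-type liver ran from -0.44 in Slc35b2 to 1.28 in Slc29a1. With tumour 6 as the only IkB-SR tumour of batch 2, an alternative chosen after seeing the data, the earlier members differed by -2.23 to -0.59 and Vegfa by -2.55.

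**Figure D5:**
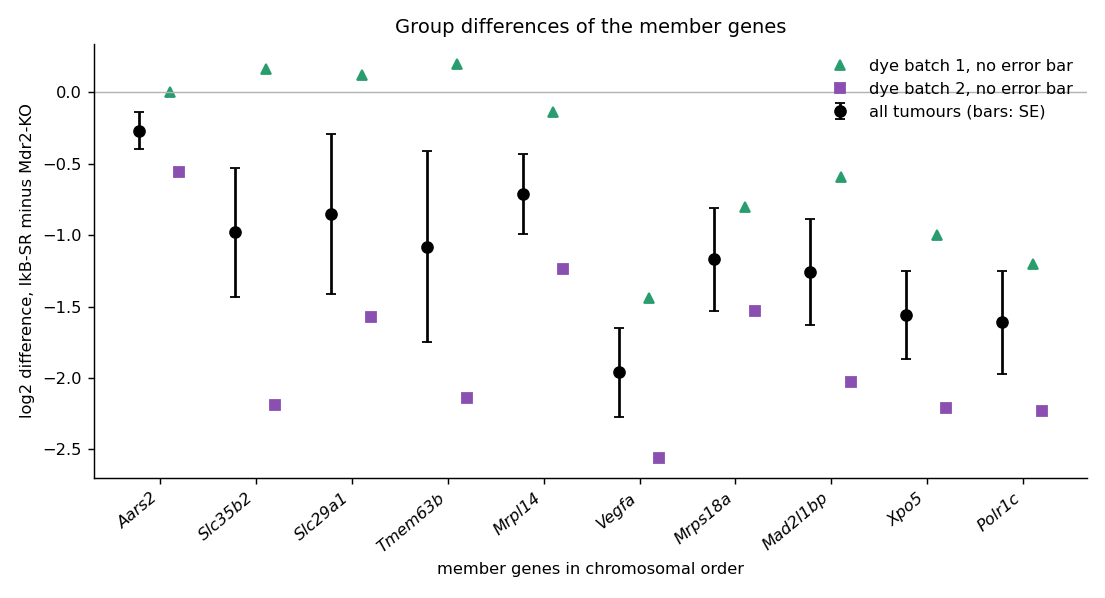
Log2 difference, IkB-SR minus Mdr2-KO tumours (vertical axis), of each member in chromosomal order. Black points are all tumours with the SE of the limma model (6 against 4). Triangles are dye batch 1 and squares dye batch 2, without error bars. All black points are below 0. The triangles are at -0.14 to 0.20 up to Mrpl14 and lower from Vegfa on.

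Against the single wild-type liver, 9 of 10 members were higher in Mdr2-KO tumours, as were 9220 of 17414 features, and no member passed the test. The limma model called 43 of 17414 features (0.247%) there. Polr1c was higher by 1.64 (SE 0.62, limma adjusted p = 0.364), Xpo5 by 1.60 (0.302), Mrps18a by 1.60 (0.370) and Vegfa by 1.41 (0.367). Slc29a1 was the exception, with -0.39 (limma adjusted p = 0.908), and its direction turned to 0.36 with dye batch as a block and to 0.84 within batch 2, which holds the wild-type liver. The members' median was 1.41, against 0.02 over all features. IkB-SR tumours were close to the wild-type liver. Of 17414 features 29 (0.167%) were called and no member among them. The differences were -1.24 in Slc29a1, -0.55 in Vegfa and between -0.13 and 0.47 in the other 8, with a median of 0.04 against -0.02 over all features. Both comparisons share the 1 wild-type sample, whose own spread is unknown and was taken to equal that of the tumours. Every Mdr2-KO tumour also differed from it in the Y-linked gene Eif2s3y, given at the end. Group and likely sex therefore cannot be told apart in that comparison.

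Lists of genes that share a task with a member but lie on other chromosomes had median relative values between -0.10 and 0.44 in Mdr2-KO tumours 1, 5 and 7. Of mitochondrial ribosomal proteins, 63 off chromosome 17 (60 with a value in tumour 7) had medians of 0.09, 0.09 and -0.01 in these tumours, and single genes ran from -0.74 to 2.01, with 1 above 1 in tumour 7. For 21 subunits of RNA polymerases I and III (20 with a value in tumours 1 and 7) the medians were -0.06, 0.04 and 0.16, and for 14 mitochondrial aminoacyl-tRNA synthetases (13 in tumour 7) -0.06, 0.20 and -0.05. For 25 exportins, importins and miRNA processing proteins they were -0.06, 0.08 and 0.07. The 10 spindle checkpoint genes had -0.10, 0.44 and 0.22, with 1 above 1 in tumour 5, and 3 other nucleoside transporters, of which 2 had a value in tumour 5, had 0.15, -0.03 and -0.01. Single genes of these other lists lay between -0.82 and 1.15. In IkB-SR minus Mdr2-KO tumours the medians over the same genes off chromosome 17 were -0.07 for mitochondrial ribosomal proteins, -0.06 for polymerase subunits, -0.08 for synthetases and -0.12 for exportins, with 0 calls in each.

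The rest of the VEGF system was measured by 7 genes. None of them passed the test, and the list with Vegfa had a median difference of -0.58 (IkB-SR minus Mdr2-KO), 7 of 8 lower in IkB-SR tumours. Kdr, the main signalling receptor, averaged 2.74 ± 0.45 (SD, n = 6) in IkB-SR and 4.25 ± 0.77 (SD, n = 4) in Mdr2-KO tumours (limma adjusted p = 0.12), and Flt1, the other main receptor, -0.03 ± 0.14 in IkB-SR and 0.60 ± 0.26 in Mdr2-KO tumours (limma adjusted p = 0.103). For both receptors the groups did not overlap, with every IkB-SR tumour the lower, as for 2.21% of 15001 features with values in all tumours. Among the other ligands Vegfc, a factor for lymph vessels, differed by -0.49, Vegfb by -0.08 and Vegfd by 0.14, and among receptors Flt4 by -0.70 and Nrp1 by -0.53.

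Endothelial and myeloid markers had lower means in IkB-SR than in Mdr2-KO tumours, as the members did and as 10314 of all 18188 features did. All 26 measured endothelial markers had lower means in IkB-SR tumours, with 0 calls and a median of -1.20, and their mean level was 0.63 to 1.55 in IkB-SR tumours, 1.75 to 3.05 in Mdr2-KO tumours and 1.93 in wild-type liver. Aqp1 and Lyve1 had the smallest p. Macrophage and Kupffer cell markers (18 of 20 measured, 18 lower, 0 calls, Folr2 and Timd4 leading) had mean levels of 1.45 to 1.93 in IkB-SR tumours, 2.07 to 2.95 in Mdr2-KO tumours and 1.30 in wild-type liver. Per tumour, the median relative value of the endothelial markers was 1.61, 0.18, 0.92 and 0.53 in Mdr2-KO tumours 1, 2, 5 and 7, so tumour 1, with the shortest stretch, had the highest. That of the macrophage markers was 1.06, 0.63, 0.08 and 0.76 in the same tumours. Tumour 5, with the highest members' median, had the lowest macrophage markers of the 4, while tumour 2, with a members' median of 0.01, had 0.63. The endothelial markers were higher in tumours 1, 5 and 7 than in tumour 2, as Vegfa was. Among the 50 named genes most like Vegfa were the markers Folr2 (rank 12), Pecam1 (rank 41) and Flt1 (rank 43). No other endothelial or macrophage marker of these lists was among them. Stellate cell and fibroblast markers (9 measured) differed by a median of -0.33, cholangiocyte markers (7) by -0.23 and cell cycle genes (23) by -0.27, with 0 calls in each. Hepatocyte markers went the other way, with a median of 0.57, 19 of 24 higher in IkB-SR tumours, 0 calls, and Alb and Hpx leading. The part of these cell types in the members' levels was not tested. In tissue, fewer cells of a type and less RNA per cell cannot be told apart.

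Targets of the hypoxia factor HIF, which include Vegfa, differed by a median of -0.08 between IkB-SR and Mdr2-KO tumours (24 of 26 measured, 16 lower, 0 calls). After Vegfa the smallest p was that of Hk2, hexokinase 2, with -0.50 (limma adjusted p = 0.239). In Mdr2-KO tumours 1, 5 and 7 the list without Vegfa (23, 22 and 23 genes with a value) had median relative values of -0.11, 0.03 and 0.10. The 6 genes of the HGF and MET system, the hepatocyte growth factor and its receptor, differed by a median of -0.06 (-0.32 to 0.06, 0 calls). Met and Hgf differed by -0.15 and -0.12.

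Checks of the samples touch these results in a few places. Hepatocyte markers (24 of 26 measured) had a mean level of 5.03 to 5.86 in IkB-SR tumours, 4.76 to 5.24 in Mdr2-KO tumours and 5.18 in wild-type liver, as their label of liver calls for, although the extraction label names skin. Nfkbia, the parent gene of the super-repressor, ranged from 0.00 to 3.11 (median 2.28) in IkB-SR tumours and from 0.04 to 0.30 in Mdr2-KO tumours. The lowest came from the sample labelled IkB-SR replicate 8, which by this gene is like the Mdr2-KO tumours, so its label is in doubt. A wrong label and an inactive transgene cannot be told apart here, since tetracycline treatment is not given. Without that sample Vegfa differed by -1.92 (limma adjusted p = 0.1). The Y-linked gene Eif2s3y was low in every Mdr2-KO tumour (-4.01 to -3.67) and spread from -3.54 to 2.46 in IkB-SR tumours. The wild-type liver had 2.33, so its comparison with the Mdr2-KO tumours may also be one of sex. Among the 7 tumours low in Eif2s3y, an alternative chosen after seeing the data, Vegfa differed by -1.81 (limma adjusted p = 0.144).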

How the data were processed

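Per the labels, RNA of 11 samples was amplified with a T7 primer and hybridised on 22 spotted two-colour arrays with dyes swapped. The authors deposited 1 value per array for each of 37632 spots, read here as normalized log2 ratios of sample over reference. For the log base, image analysis and normalization, the sources used here give nothing. Base 2 was assumed, since the highest value was 8.35. Between 19576 and 25000 spots per array had a value, and spot intensities were not used, so the number of arrays limits the precision. The swapped arrays of a sample correlated at 0.861 to 0.988, so the directions had been aligned.

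Platform annotation named 20879 spots, with 5005 symbols updated through the RefSeq table. Swapped arrays were averaged, then spots of a symbol that had values in 3 or more Mdr2-KO and 4 or more IkB-SR tumours. One model with 3 group means was fitted with limma 3.58.1 in R 4.3.3 and adjusted by Benjamini-Hochberg over all features. Python 3.11.15 was used for tables and plots. Dye batches were split at an SD of the dye difference of 0.5. The alternatives were other scalings, filters, dyes, batches, spots, weights and left-out tumours. On simulated data for IkB-SR against Mdr2-KO tumours (14705 features, 200 changed, 5 simulations) the fit called 72% of genes changed 2-fold and 95.8% of those changed 4-fold, and 5.62% of its calls were false. Those values were drawn independently, with the same SD in both groups and no dye batches. The members spread more widely in Mdr2-KO tumours, so these rates need not hold for them.

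An exact permutation test of Vegfa was not used, since the rule used those values. The members, lists and tests were chosen with earlier results of these data known. Named were the members, the measured genes between them, the 5 nearest on each side, VEGF ligands and receptors, the 8 genes most like Vegfa, in other lists the 2 with the smallest p, and Nfkbia and Eif2s3y. Any other gene in the text was picked with its values in view.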

Additional observations from a re-analysis of the deposited data

Results flagged for a closer look

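Vegfa in Mdr2-KO tumour 2 (-0.15) lay far below the other 3 Mdr2-KO tumours (1.34 to 1.61): its gap to the nearest was 0.845 of the group's range, beyond Dixon's limit for 4 samples. The members were chosen because some Mdr2-KO tumours were high and others not, so this gap restates the choice and tests nothing. Such gaps were looked for in 27 groups of 4 or 6 tumours over 14 genes, and chance flags about 1 in 20 groups.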

How the results depend on the processing

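Vegfa was lower in IkB-SR than in Mdr2-KO tumours under all 26 alternatives (-2.56 to -1.44, limma adjusted p from 0.000839 to 0.304), and passed the threshold under 1 of them, without Mdr2-KO tumour 2 (-2.36, adjusted p = 0.000839). Over the tumours left out in turn it ranged from -2.36 to -1.77. Without tumour 2, 4 members were called (0 to 4 over the tumours left out) and 2, Vegfa and Xpo5, against wild-type liver (0 to 2). Over all features 32 were called between the tumour groups in that setting, and the next paragraph gives the count against wild-type liver. The cause was not tested. Of 233 member differences between the tumour groups under alternatives, 229 were below 0. The exceptions were all in dye batch 1 alone, where Aars2 had 0.00, Slc35b2 0.16, Slc29a1 0.12 and Tmem63b 0.20. That batch does not hold Mdr2-KO tumours 5 and 7, and batch and tumour cannot be told apart for them.

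The count of features called between the tumour groups, 0 as reported, was 9 with centred arrays, 11 after quantile normalization, 2 on Cy3 and 1 on Cy5 arrays, 3 with dye batch as a block, 1 with each spot its own feature, 4 with values in all 11 samples, 54 with array weights, and 0 to 32 over the tumours left out. Chosen after seeing the data, it was 5 with every spot of a symbol averaged and 21 among tumours low in Eif2s3y. It was 11 without IkB-SR tumour 4, 11 without the sample labelled IkB-SR replicate 8 and 32 without Mdr2-KO tumour 2. Mdr2-KO tumours against wild-type liver gave 43 calls as reported, 28 after quantile normalization, 12 on Cy3 and 24 on Cy5 arrays, 65 with the block, 0 in dye batch 2, 110 with weights and 14 to 43 over the tumours left out (16, 23 and 14 without Mdr2-KO tumours 1, 2 and 5, and 19 without IkB-SR tumour 10). IkB-SR tumours against wild-type liver gave 29 calls as reported, 13 on Cy3 arrays, 44 with the block, 0 in batch 2 and 18 to 34 over the tumours left out (19 without the sample labelled IkB-SR replicate 8 and 18 without IkB-SR tumour 10).

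Against wild-type liver, small differences changed sign. Slc29a1 in Mdr2-KO tumours had 0.36 with the block, 0.84 in batch 2, and -0.88 to 0.03 over the tumours left out (0.03 and 0.01 without Mdr2-KO tumours 1 and 2). In IkB-SR tumours Aars2 had 0.09 on Cy3 arrays and 0.10 with the block, Mrpl14 had 0.02 on Cy5 arrays and 0.28 with the block, and Mad2l1bp had -0.06 in batch 2. Tmem63b had 0.00 with centred arrays, -0.01 with weights and -0.05 (without IkB-SR tumour 6) to 0.18 over the tumours left out. Xpo5 had -0.04 centred, -0.13 after quantile normalization, -0.21 on Cy3 arrays, -0.14 in batch 2 and 0.00 (without IkB-SR tumour 4) to 0.11 over the tumours left out. Polr1c had -0.05 centred, -0.11 after quantile normalization, -0.18 on Cy3 arrays, -0.11 with the block, -0.41 in batch 2 and -0.08 to 0.14 over the tumours left out (-0.05, -0.08 and -0.03 without IkB-SR tumours 3, 4 and 10). The cause was not tested.

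The stretch around Vegfa held 20 to 23 genes in Mdr2-KO tumour 5 and 48 to 67 in tumour 7 under the alternatives, and 0 in the other 7 tumours. In tumour 1 it held 0 genes with a running median over 11 genes, since the median at Vegfa itself was 0.29 there, while at Mrps18a it was 1.35. No paired analysis was possible because the groups share no replicate numbers. With 10 tumours and 1 wild-type liver, and spot intensities not used, low signals could not be told from background.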

Other observations

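Mdr2-KO tumour 7 held further raised stretches of chromosome 17 that the members do not reach. Between Gtf2h4 and H2-T10, a stretch with genes of the major histocompatibility complex, the 15 genes had a median relative value of 1.07, and the 12 genes from Ehd3 to Rasgrp3 had 1.02. The 4 genes from Pla2g7 to Enpp5 had 1.31. In Mdr2-KO tumour 1 the 4 genes from Psmb8 to H2-Aa had 0.44. These stretches were found in the data and were not tested.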
